A study of Mus musculus with 2 samples.

Results

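The 10 genes followed here mark fibroblasts and stromal progenitor cells and were measured in cultured mouse tumour pericytes. They are Ly6a, Ly6c1, Cd34, Thy1, Fap, Pdpn, Pi16, Dpt, S100a4 and Clec3b, chosen by name as surface and secreted markers. All 10 of 10 were found by symbol among the 52636 genes of the deposited table. The study set pericytes without Cd248 (Cd248 null, labelled as the knockout) against pericytes labelled as heterozygous for Cd248, to ask what this membrane lectin does in tumour pericytes. There was 1 RNA-seq library per genotype, so every difference below describes 2 libraries and none has a replicate check. Both libraries came from primary tumour pericytes of C57BL/6 mice, sorted by flow cytometry, grown on gelatin-coated plates and labelled as passages 10 to 12. The sorting markers, the tumour, the age of the mice and the form of the null allele are not stated in the sources used here.

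Fibroblasts and mural cells are neighbouring mesenchymal cells, and no single surface protein separates them. Ly6a (Sca-1), Ly6c1 and Thy1 (CD90) are small proteins held in the outer membrane by a lipid anchor, and Ly6a with Cd34 marks progenitor cells in many mouse tissues. In published single-cell maps of mouse tissues, Pi16 and Dpt mark fibroblast populations found in most organs, while Fap and Pdpn are used to recognise activated fibroblasts of tumours. Several of these genes are also used outside fibroblasts: Cd34 in endothelium and blood progenitors, Thy1 in neurons and T cells, Pdpn in lymphatic endothelium and mesothelium, and S100a4 in macrophages.

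The markers did not move as a block. Ly6a, Ly6c1 and Thy1 were higher in null cells, Cd34 and Fap were lower, and Pdpn, Dpt and S100a4 lay within 2-fold. Pi16 and Clec3b stayed below an FPKM of 1 in both libraries. FPKM scales fragments to transcript length and to library size, so levels can be set roughly side by side between genes. Any error in the length used for a gene is outside the counting intervals given below. A gene was counted as expressed where either library reached an FPKM of 1, and the 2-fold mark was applied to the log2 ratio of null over heterozygote after adding 1 to each FPKM. Of the 8 expressed markers, 3 were past the mark in the higher direction, where 6.84% of the 12773 expressed genes were, and 2 in the lower direction, where 6.88% were. In either direction 13.7% of expressed genes were past the mark. The median log2 ratio of the 8 was 0.19, beside 0.03 over all expressed genes.

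**Figure D1:**
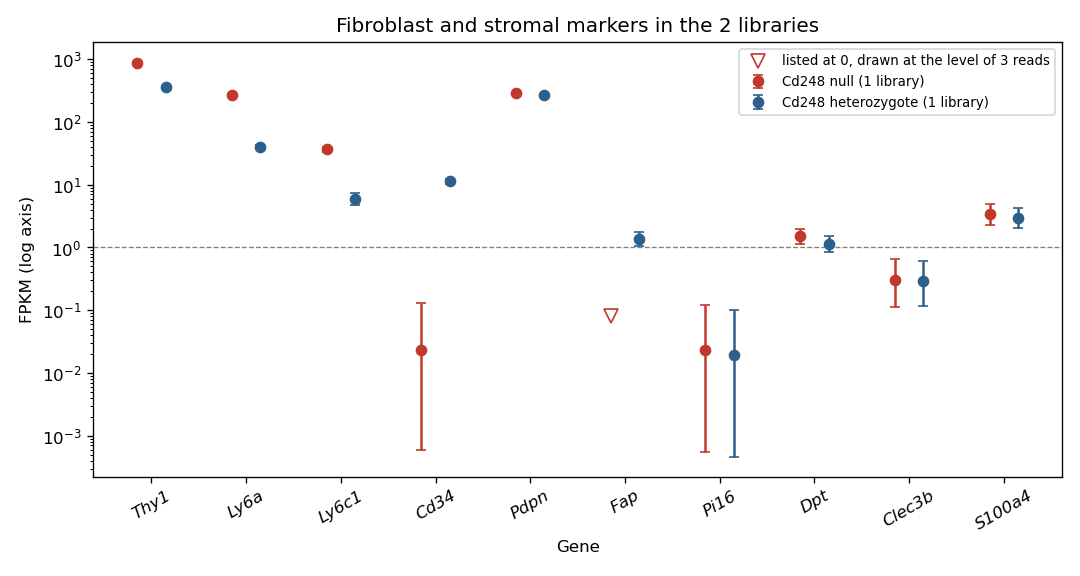
FPKM (log axis) of the 10 markers in Cd248 null cells (red, left of each pair) and heterozygote cells (blue), with exact 95% Poisson intervals for counting error; the dashed line is an FPKM of 1 and the open triangle stands for Fap, which was listed at 0 in null cells. Thy1, Ly6a and Ly6c1 sit higher in null cells, Cd34 and Fap lower, and the intervals of Pi16, Dpt, Clec3b and S100a4 overlap between libraries.

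The steps between low FPKM values gave back whole reads, which sets how firmly each value can be read. On a 1 kb transcript, an FPKM of 1 stood for 19.8 reads in null cells and 24.0 in heterozygote cells. The column names are codes, and the one ending in N was read as null. Cd248 itself had an FPKM of 0.0592 (3 reads) in that library and 20.98 (1311 reads) in the other, so the targeted gene goes with that reading. The pericyte label was checked on 10 markers, of which 5 were expressed. Pdgfrb, the receptor through which platelet-derived growth factor recruits mural cells, stood at 57.3 in null cells and 8.25 in heterozygote cells. The proteoglycan gene Cspg4 (2.59 and 5.02) and the adhesion molecule gene Mcam (8.68 and 11.2) were within 2-fold. Des (1.077 and 0.188) and Notch3 (2.199 and 0.689) were higher in null cells. Both stayed inside the 2-fold mark with 1 added to each FPKM. Adding 0.1 instead, or scaling the columns to an equal sum, took the pericyte markers counted as higher from 1 to 3. The other settings examined kept 1. Rgs5, a defining gene of brain and tumour pericytes, was at 0.377 and 0.0173, and the potassium channel gene Abcc9 was listed at 0 in both. Anpep went the other way, at 0.0942 (3 reads) in null cells and 0.596 (23 reads) in heterozygote cells. Kcnj8 and Higd1b were listed at 0 in null cells and had 1 read each in heterozygote cells. Lum, a fibroblast proteoglycan gene, was at 0.0413 in null cells and listed at 0 in heterozygote cells, whereas the collagen gene Col1a1 reached 2779 and 2024. In bulk RNA, fewer cells of a type and less RNA per cell cannot be told apart.

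Thy1 was the most abundant of the 10 markers in both libraries. Its FPKM was 884 in null cells and 359 in heterozygote cells, ranks 114 of 12005 and 309 of 12002 among the genes at an FPKM of 1 or more. The null value was 2.46-fold higher, with an exact 95% interval for counting error of 2.39-fold to 2.53-fold over 14479 and 7128 reads. Thy1 encodes a lipid-anchored glycoprotein that binds integrins and is a standard surface antigen of cultured mesenchymal cells. Markers of the other cells that carry it were uneven: the T cell gene Cd3e was listed at 0 in both libraries, as was the neuronal gene Rbfox3. The neuronal tubulin gene Tubb3 was at 130.7 in null cells and 8.39 in heterozygote cells, the only 1 of 4 neuronal markers that was expressed. The summed FPKM of those 4 was 130.8 in null cells and 8.57 in heterozygote cells, and its part in the Thy1 value was not tested.

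Ly6a had the highest log2 ratio of the markers, 2.75. It stood at an FPKM of 274 in null cells and 39.8 in heterozygote cells, from 4250 and 748 reads. The null value was 6.89-fold higher (exact 95% counting interval 6.37 to 7.45). Ly6a therefore ranked 388 of 12005 in null cells but 3292 of 12002 in heterozygote cells. Ly6c1, a related antigen of endothelium and some fibroblasts, stood at 36.9 and 5.99, from 453 and 89 reads. Its null value was 6.17-fold higher (4.91 to 7.83), an interval that overlaps that of Ly6a, so the fold differences of these paralogs cannot be told apart at this depth.

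These paralogs lie next to each other on chromosome 15 and are close in sequence, which bears on how reads are divided between them. The first 120 coding bases of Ly6a, Ly6c1 and the near copy Ly6c2 are shown because they cover both the stretches these genes share and those where they part. They are from GENCODE M21 transcripts on GRCm38, minus strand, coding bases 1 to 120, with capitals where a base differs from Ly6c1.
Ly6a: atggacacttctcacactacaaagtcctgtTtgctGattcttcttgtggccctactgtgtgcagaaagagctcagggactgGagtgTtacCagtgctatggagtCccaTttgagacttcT
Ly6c1: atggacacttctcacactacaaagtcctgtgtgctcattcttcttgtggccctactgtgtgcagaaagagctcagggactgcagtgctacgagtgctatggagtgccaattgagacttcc
Ly6c2: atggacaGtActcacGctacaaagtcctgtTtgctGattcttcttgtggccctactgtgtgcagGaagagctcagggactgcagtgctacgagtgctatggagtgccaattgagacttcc

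In this stretch Ly6a differed from Ly6c1 at 8 bases and Ly6c2 differed from Ly6c1 at 6. Over the whole coding sequence Ly6c1 and Ly6c2 were identical at 387 of 396 aligned bases (97.7%), and Ly6c1 and Ly6a at 332 of 396 (83.8%). Of the 1764 different windows of 50 bases in all annotated Ly6c1 transcripts, 379 (21.5%) also occur in Ly6c2 and 195 (11.1%) in Ly6a. Those 195 are 15.03% of the 1297 windows of Ly6a. Ly6c2, the form found on monocytes, had an FPKM of 0.0864 in null cells and was listed at 0 in heterozygote cells. The sources used here do not say how reads that fit several genes were counted, so the Ly6c1 value is uncertain and the part of shared reads in its ratio was not tested.

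The rest of the Ly6 cluster was mostly silent. The region was taken after the member values were seen, as the 25 protein-coding genes from Psca to Gpihbp1 in the order of the GRCm38 annotation. Of the 6 expressed there, 4 were higher in null cells, none lower and 2 within 2-fold. Over all expressed genes 6.84% were higher and 6.88% lower. Ly6f, just under the expression filter, went the other way, with 0 reads in null cells and an FPKM of 0.983 (20 reads) in heterozygote cells. Beside Ly6a and Ly6c1, the higher ones were Ly6i, which lies next to Ly6a, and Lynx1, a modulator of acetylcholine receptors (28.7 and 13.6). Ly6i stood at 1.31 (23 reads) in null cells and 0.0470 (1 read) in heterozygote cells. Its coding sequence was identical to that of Ly6a at 350 of 405 aligned bases (86.4%), and 31 of the 1297 Ly6a windows of 50 bases also occur in it. The part of reads shared with Ly6a in the Ly6i value was not tested. With 1 added to each FPKM, Ly6i and Lynx1 passed the mark narrowly, with log2 ratios of 1.14 and 1.03. For Ly6i the added 1 holds the ratio down, and its values rest on few reads. Neither gene passed with a pseudocount of 5 or after subtracting the median of chromosome 15, which was 0.15 over 503 genes. Ly6e, which flanks Ly6i on its other side and encodes the mouse receptor of the placental fusion protein syncytin-A, did not follow Ly6a, with an FPKM of 74.6 in null cells and 101.7 in heterozygote cells. In the wider family of 31 Ly6 and urokinase receptor-like genes, 7 were expressed, 4 of them higher and 2 lower, with a median log2 ratio of 1.03. The lower ones were the complement inhibitor Cd59a (3.63 and 12.6) and the urokinase receptor Plaur (75.4 and 156), and Plaur lay within 2-fold when the columns were scaled to an equal sum.

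**Figure D2:**
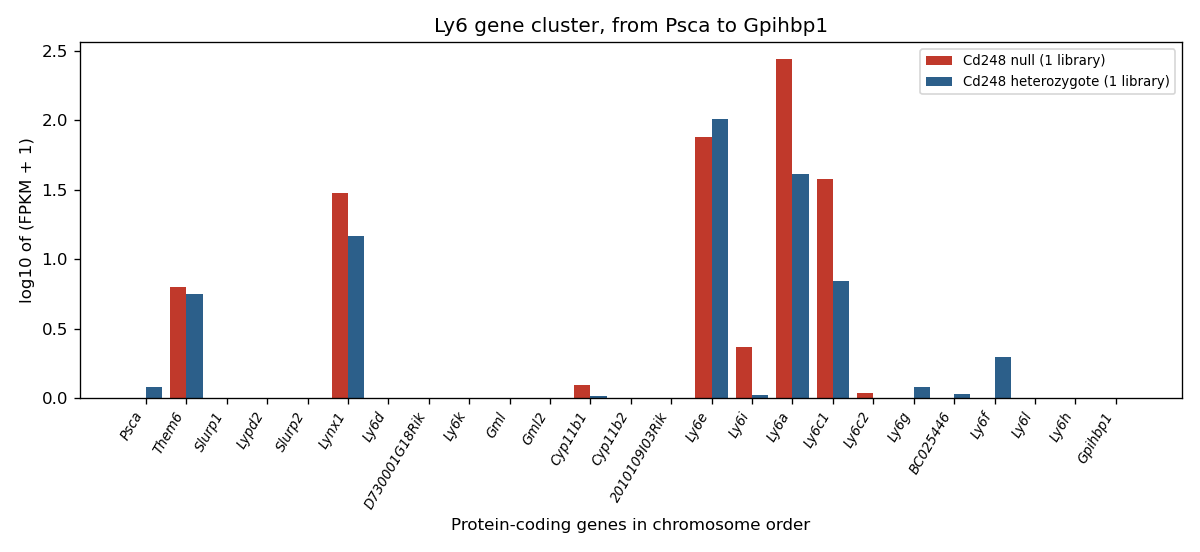
Bars give log10 of FPKM + 1 for the 25 protein-coding genes of the Ly6 cluster in chromosome order, in Cd248 null cells (red, left) and heterozygote cells (blue). Ly6a and Ly6c1 are neighbours and both higher in null cells, Ly6e, on the other side of Ly6i, is not, and most of the other genes are at or near 0.

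Cd34 was close to absent from null cells. It had an FPKM of 0.0230, which is 1 read, in null cells and 11.3, which is 593 reads, in heterozygote cells. The null value was 489-fold lower, with an exact counting interval of 87.5-fold to 19356-fold that is wide because it rests on 1 read. Cd34 encodes a sialomucin of progenitor and endothelial cells. Of its relatives, Podxl (podocalyxin) stood at 1.89 in null cells and 2.72 in heterozygote cells, Podxl2 (endoglycan) was 4.43-fold higher in null cells at 4.72 against 1.06 (a call lost with a pseudocount of 5 or a minimum FPKM of 5), and the endothelial sialomucin Emcn was listed at 0 in both. The antisense gene Gm16897 overlaps Cd34 and had 0 in null cells and 0.218 in heterozygote cells, and the sources used here do not say whether counting used strand.

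Markers of blood cells and of endothelium, apart from the lymphatic list, were below an FPKM of 1 in both libraries, although some moved with Cd34. In the lymphatic endothelial list, Flt4 was at 1.55 (151 reads) in null cells and 23.5 (2773 reads) in heterozygote cells. Its companions Prox1, Lyve1 and Ccl21a were below an FPKM of 1 in both. None of 6 endothelial markers outside the lymphatic list was expressed, and their summed FPKM was 0.256 in null cells and 0.933 in heterozygote cells. The receptor gene Kdr made up most of the heterozygote sum, at 0.0578 (5 reads) in null cells and 0.696 (73 reads) in heterozygote cells, and Tek was at 0.0147 (1 read) and 0.146 (12 reads). Pecam1 was at 0.184 and 0.0337, and Cdh5 was listed at 0 in null cells and at 0.0576 in heterozygote cells. None of 8 blood cell markers was expressed either, with sums of 0.278 and 0.170. The pan-leukocyte gene Ptprc was listed at 0 in null cells and at 0.0574 in heterozygote cells, and the macrophage gene Adgre1 was listed at 0 in both. Mesothelial markers, in contrast, moved the same way as Cd34: 6 of 7 were expressed, all 6 lower in null cells, beside 6.88% of all expressed genes. The summed FPKM of the mesothelial markers was 17.1 in null cells against 1062 in heterozygote cells. Among them, Upk3b stood at 0.430 in null cells and 330.2 in heterozygote cells, and the part of mesothelial or endothelial markers in the Cd34 value was not tested.

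Fap was the other marker that was lower in null cells. It was listed at 0 there, with 0 reads, and stood at an FPKM of 1.38 in heterozygote cells, from 62 reads. A count of 0 was taken to allow a null FPKM of up to 0.0809 (3 reads in that library). Against this floor the null value would be at least 17.05-fold lower, which is a bound and not a measured fold. The exact 95% counting bound for 0 against 62 reads is weaker, at least 13.458-fold lower. Fap encodes a membrane-bound serine peptidase of activated fibroblasts. Its heterozygote level was itself low, ranking 11463 of 12002, and Fap no longer passed the 2-fold mark with a pseudocount of 5, where its log2 ratio was -0.35, or the expression filter at an FPKM of 5. Of 8 genes of the same peptidase family, 5 were expressed and Fap alone was past the mark, beside 13.7% of all expressed genes. Dpp4, its closest relative and a marker of fibroblast progenitors, had 0.0743 (2 reads) in null cells and 0.245 (8 reads) in heterozygote cells. The mesothelial markers given above moved the same way as Fap, and their part in its value was not tested. The cytosolic peptidase genes Dpp8 (32.0 and 20.8) and Dpp9 (34.5 and 29.0) were far more abundant and within 2-fold.

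Pdpn was highly expressed and nearly level. Podoplanin, its product, is a mucin-type protein that binds the platelet receptor CLEC-2 and links the membrane to the actin skeleton. Pdpn had an FPKM of 291 in null cells and 270.1 in heterozygote cells, from 7425 and 8354 reads. The fold was 1.08, with a counting interval of 1.04 to 1.11 that leaves out 1 but covers no difference between cultures. Pdpn kept its place among abundant genes, at ranks 359 and 435. Of 8 expressed members of a list of 10 partners and linkers, Pdpn included, 6 lay within 2-fold, 1 was higher and 1 lower. Over all expressed genes 13.7% were past the mark in either direction, so most genes lay within 2-fold in any case. The linker moesin (Msn) stood at 363 in both, whereas the related linker ezrin (Ezr) was 5.15-fold lower in null cells, at 54.0 against 278, and the tetraspanin gene Cd9 was 2.43-fold higher, at 154.6 against 63.7. Of the lymphatic markers, Prox1 was listed at 0 in null cells and at 0.166 in heterozygote cells, Lyve1 at 0 and 0.0451, and Flt4, the only 1 of 4 expressed, was at 1.55 and 23.5. Mesothelium also carries podoplanin, and the sum of its markers was 17.1 in null cells and 1062 in heterozygote cells.

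**Figure D3:**
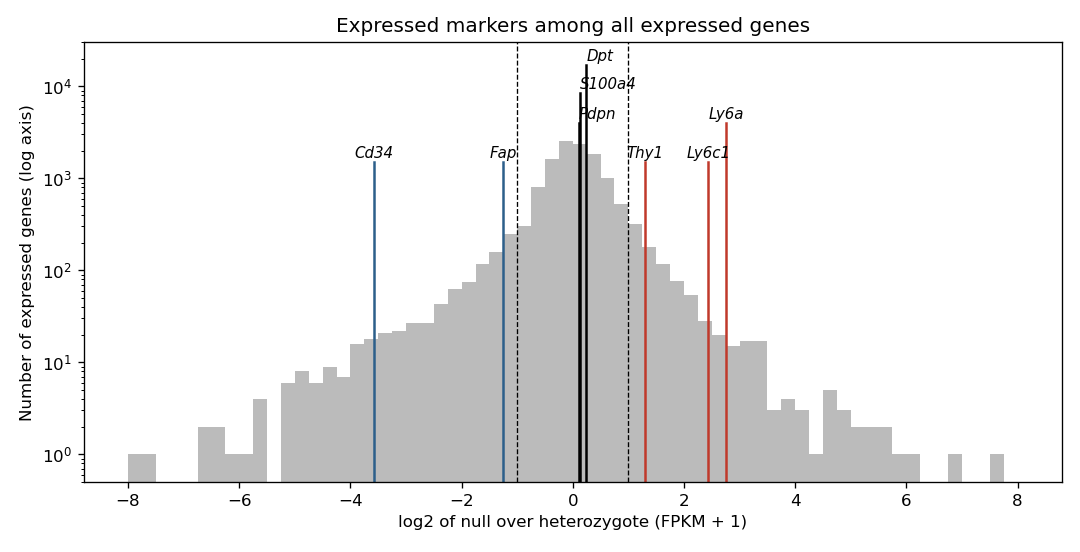
Histogram of the log2 ratio of null over heterozygote (FPKM + 1) for the 12773 expressed genes (log count axis), with the 8 expressed markers as lines (red higher, blue lower, black within 2-fold) and dashed lines at the 2-fold marks; line heights only separate the labels. Ly6a at 2.75 and Ly6c1 at 2.44 lie in the upper tail, Cd34 at -3.58 in the lower tail, and Pdpn, S100a4 and Dpt near the centre.

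The secreted markers were scarce in both libraries. Dpt, which encodes the collagen-binding matrix protein dermatopontin, had an FPKM of 1.52 (52 reads) in null cells and 1.14 (47 reads) in heterozygote cells, a 1.34-fold difference with a counting interval of 0.886 to 2.03. Its log2 ratio was 0.24. Dpt and Cd34 lie on chromosome 1, whose 748 expressed genes had a median log2 ratio of 0.41, and relative to that median the Dpt ratio was -0.17. Clec3b, which encodes the plasminogen-binding protein tetranectin, had 0.306 (6 reads) in null cells and 0.294 (7 reads) in heterozygote cells. Pi16, a peptidase inhibitor-like membrane protein gene, had 0.0230 and 0.0190, which came to 1 read in each library. For Clec3b and Pi16 a difference was not detectable at this depth, since the counting interval of the fold was 0.288 to 3.61 for Clec3b and 0.0154 to 95.1 for Pi16.

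S100a4, whose calcium-binding product is also called fibroblast-specific protein, was low and differed little, while 6 of the other 9 expressed genes of its family were lower in null cells. It had an FPKM of 3.39 (28 reads) in null cells and 2.9998 (30 reads) in heterozygote cells, a 1.13-fold difference with a counting interval of 0.651 to 1.96. Among 18 S100 family genes, counting the binding partner S100pbp, 10 were expressed. Of these, 6 were at least 2-fold lower in null cells, beside 6.88% of all expressed genes, none higher, beside 6.84%, and 4 within 2-fold. After subtracting the chromosome medians 4 were lower, without S100a3 and S100a11, and 5 were lower with a pseudocount of 5, a minimum FPKM of 5 or equal column sums. The median log2 ratio was -1.04, and the mesothelial sum moved the same way, its part in these values not tested. S100a6 (calcyclin), the most abundant, stood at 1025 in null cells and 3355 in heterozygote cells, a 3.27-fold difference. S100a7a was 21.4-fold lower, at 2.64 against 56.3, and S100a13, which helps to export growth factors, was 2.96-fold lower, at 21.6 against 63.9. S100a10, the annexin partner that binds plasminogen, stood at 497 and 979.9 and just missed the mark.

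On chromosome 3, S100a4 lies between the low genes S100a3 and S100a2 on one side and S100a5 and the abundant S100a6 on the other, and it overlaps the predicted gene Gm42674, which was listed at 0 in both libraries. S100a3 was at 0.171 in null cells and 1.38 in heterozygote cells, and S100a5 at 0.118 and 0.879. The 13 protein-coding genes from S100a1 to S100a9 in the annotation order are a region taken after the member values were seen. Of these, 7 were expressed, 5 were lower, beside 6.88% of all expressed genes, and 2 within 2-fold. The median log2 ratio of all 613 expressed genes of chromosome 3 was -0.12. The macrophage genes that can accompany S100a4 were absent or nearly so, as given above for Ptprc and Adgre1.

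**Figure D4:**
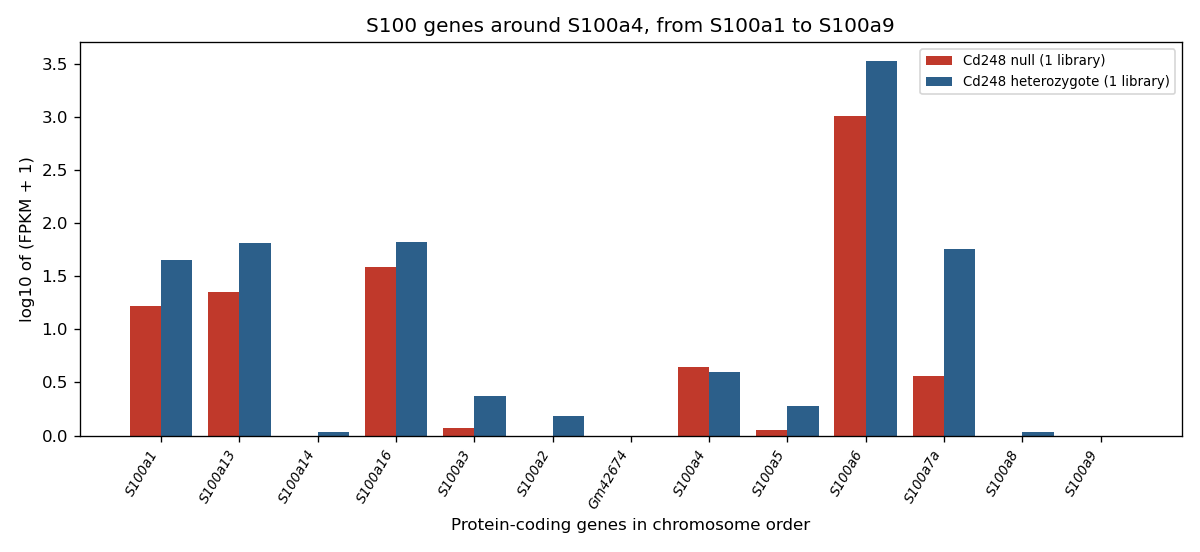
Bars give log10 of FPKM + 1 for the 13 protein-coding genes from S100a1 to S100a9 in chromosome order, in Cd248 null cells (red, left) and heterozygote cells (blue). S100a4, low in both, differs little while S100a1, S100a13, S100a6 and S100a7a are lower in null cells.

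The order of the markers by level was similar at the top of both libraries and differed below it. In null cells the order by FPKM ran Thy1, Pdpn, Ly6a, Ly6c1, S100a4, Dpt, Clec3b, then Cd34 and Pi16 with 1 read each, and Fap at 0. In heterozygote cells it ran Thy1, Pdpn, Ly6a, Cd34, Ly6c1, S100a4, Fap, Dpt, Clec3b and Pi16. The counting intervals of Fap (1.06 to 1.77) and Dpt (0.835 to 1.51) overlapped in heterozygote cells, so their order there is not set at this depth. Pdpn and Ly6a did not overlap in null cells (284 to 298 for Pdpn and 266 to 282 for Ly6a), although they lay within 10% of each other. These intervals leave out error in transcript length, so the order of Pdpn and Ly6a is not set either. Summed over the 10 markers, the FPKM was 1491 in null cells and 692 in heterozygote cells, and Thy1 made up most of each sum (884 and 359).

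Genes that usually accompany Pi16 in progenitor-type fibroblasts also split. Of 19 such genes 13 were expressed. In null cells 5 of these were higher, 3 lower and 5 within 2-fold, beside 6.84% higher and 6.88% lower of all expressed genes. The median log2 ratio of the list was 0.36, beside 0.03 over all expressed genes. After subtracting the chromosome medians the list gave 5 higher and 4 lower, with a median of 0.18. The chemokine scavenger receptor Ackr3 (19.5 and 0.865), the elastic fibre gene Mfap5 (166 and 17.8) and Ly6a led the higher ones. The lower ones were Cd248, the protein C receptor gene Procr (14.5 and 39.4) and the annexin gene Anxa3 (287 and 663). Cd248 belongs to this group by its known pattern and is the targeted gene, so its value is no separate result. Ly6a and Ly6c1, both among the 5 higher genes, are markers already counted above, so their values are no separate result either.

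Genes that usually accompany Dpt behaved alike in number. Of 15 such genes 12 were expressed, 5 higher, 4 lower and 3 within 2-fold, beside 6.84% higher and 6.88% lower of all expressed genes. The median of the list was 0.43, beside 0.03 over all expressed genes. The chemokine gene Cxcl12 (567 and 33.3), the protease gene Htra3 (27.5 and 0.821) and the glucocorticoid-activating enzyme gene Hsd11b1 (10.6 and 0.107) were the highest. The lipase gene Lpl (0.572 and 55.7), the enkephalin precursor gene Penk (0.140 and 13.9) and Fbln1 (3.18 and 10.6), which encodes fibulin-1, were the lowest. With a pseudocount of 5, 2 of these 15 genes were lower in place of 4.

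Other genes used to recognise fibroblasts and mesenchymal stromal cells lay on both sides of the 2-fold marks and between them. Of all expressed genes 6.84% were higher and 6.88% lower, with a median log2 ratio of 0.03. Among 15 matrix and identity genes of fibroblasts, 13 were expressed, 5 higher, 2 lower and 6 within 2-fold, with a median of 0.06. Beside Mfap5, the transcription factor gene Prrx1 (121 and 33.2) and the fibrillin gene Fbn1 (42.5 and 13.1) were higher. So were the collagen genes Col3a1 (435 and 187) and Col1a2 (1832 and 853). Dcn (20.8 and 117) and the growth factor receptor gene Pdgfra (21.6 and 46.2) were lower. Pdgfra lay within 2-fold with a pseudocount of 5 or columns scaled to an equal sum. After subtracting the chromosome medians, 4 genes of this list were higher and 3 lower. Among 15 surface antigens of mesenchymal stromal cells 12 were expressed, 3 higher, 1 lower and 8 within 2-fold, with a median of -0.05. Vcam1, a leukocyte adhesion molecule gene, led the higher ones at 126.6 against 46.9, followed by the marker Thy1, already counted above, and Cd9. Alcam, the gene of another adhesion molecule, was 7.46-fold lower in null cells, at 1.71 against 12.8. The antigens Cd44 (104.5 and 114.6), Itgb1 (593 and 581) and Nt5e (1.36 and 1.28) were close to level.

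**Figure D5:**
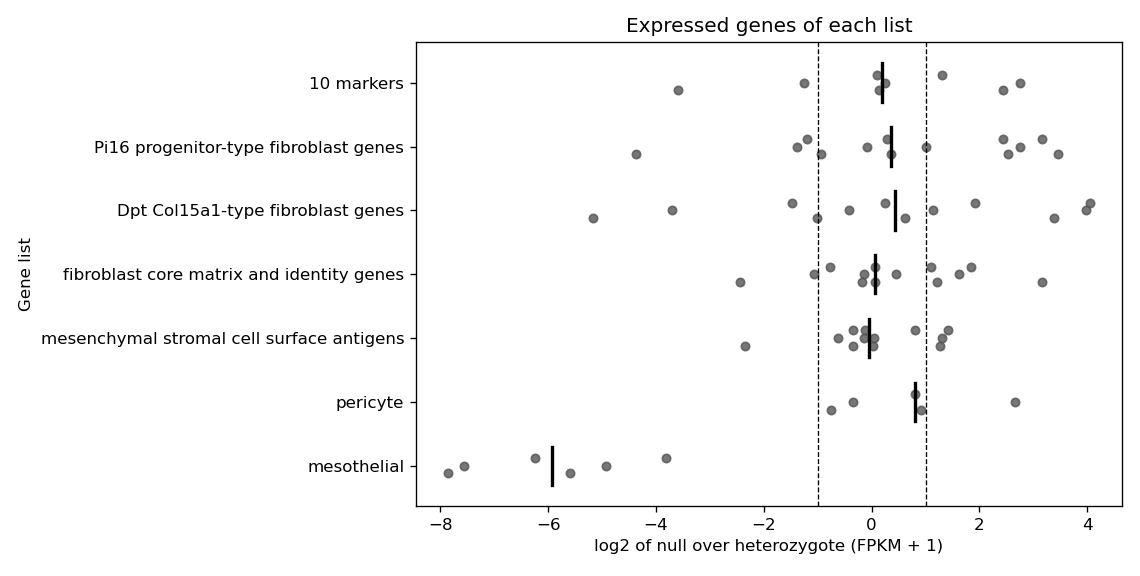
Each point is an expressed gene, placed by its log2 ratio of null over heterozygote (FPKM + 1), for the 10 markers, 4 fibroblast and stromal lists, pericyte markers and mesothelial markers; thick bars are medians and dashed lines the 2-fold marks. The fibroblast and stromal lists spread to both sides of 0, with medians from -0.05 to 0.43, while all 6 expressed mesothelial markers lie below the lower mark.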

How the data were processed

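Trizol-extracted RNA went into an Illumina TruSeq RNA library kit, per the labels' protocols. The authors deposited 1 table of FPKM with 1 column per library. Bowtie2 2.2.3 and the build mm8 are named in the submitters' processing notes, while the counter, the annotation and the denominator are unstated in the sources used here. Symbols came from GENCODE M21 (GRCm38) by gene ID, for 52403 of 52636 IDs. The builds differ, so no coordinates are printed. Of 52329 symbols, 73 had several rows, and the row with the highest mean stood for the symbol.

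Reads were recovered as FPKM times the mean length of a gene's annotated transcripts times a library total, fitted on genes with 1 transcript (19786238 reads in null cells and 23982425 in heterozygote cells). Under 10 reads, 98.6% of null values and 98.5% of heterozygote values of those genes were whole within 0.02 reads, and for genes with several transcripts, which the fit did not use, 88.9% in both. Between 10 and 100 reads the genes with several transcripts gave 80.8% in null cells and 82.4% in heterozygote cells. Other values were rounded to the nearest read: Pi16 came to 1.04 reads in both libraries and Cd248 to 3.05 in null cells. No count model was run. Intervals are exact Poisson for levels and exact binomial (Clopper-Pearson) for folds, at 95%, and the floor for a count of 0 is 3 reads. All cover counting error only, since 1 library per genotype gives no spread between cultures. Reads do not each stand for a separate molecule, so the intervals can be too narrow even for counting error.

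A single library per genotype allows no p-value or standard deviation. The ratio was log2 of null over heterozygote with a pseudocount of 1, which understates differences of low genes, over genes that reached an FPKM of 1 in either library. Every marker is named, and from each companion list up to 3 genes per direction with the largest ratios past 2-fold, with further members for context. The markers and lists were chosen with earlier results of these data known. Steps were tested on simulated data. Python 3.11.15, scipy 1.17.1 and Biopython 1.88 were used.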

Additional observations from a re-analysis of the deposited data

How the results depend on the processing

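Of 7 alternatives, none changed the 3 markers counted as higher in null cells (Ly6a, Ly6c1 and Thy1). The 2 counted as lower became 1, Cd34, with a pseudocount of 5, since Fap lies at low values, and 1 with a minimum FPKM of 5, which leaves 5 markers. That filter also took the median log2 ratio of the markers to 1.30. Over the alternatives the log2 ratio ran from 2.61 to 2.85 for Ly6a, 1.93 to 2.61 for Ly6c1, 1.24 to 1.39 for Thy1, -6.53 to -1.70 for Cd34, -3.89 to -0.35 for Fap and -0.17 to 0.39 for Dpt. Over all genes, a pseudocount of 5 gave 400 higher and 369 lower in place of 874 and 879, and a minimum FPKM of 5 gave 523 lower. No paired analysis was possible because each genotype has 1 library. Pi16 and Clec3b, with at most 7 reads, are limited by depth.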

Other observations

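Enzymes that build and attach the lipid anchor carried by Thy1, Ly6a and Ly6c1 were also examined. Of 27 such genes 26 were in the table and 25 were expressed, 2 of them higher in null cells, none lower and 23 within 2-fold, with a median log2 ratio of 0.09; over all expressed genes 13.7% were past the mark in either direction and 6.84% higher. Piga, which encodes the catalytic subunit of the first step, stood at an FPKM of 16.6 in null cells and 5.43 in heterozygote cells, and Pign, which modifies the anchor's sugar core, at 23.8 and 10.9. Pign was within 2-fold with a pseudocount of 5 or after subtracting the median of chromosome 1, on which it lies.

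Clec3b and Fap were also set among 12 genes of the plasminogen system, of which 9 were expressed. None was higher, 2 were lower (Plaur and Fap) and 7 within 2-fold, beside 6.84% higher and 6.88% lower of all expressed genes. The median of the list was -0.64, beside 0.03 over all expressed genes. The activator gene Plat stood at 42.1 in null cells and 23.8 in heterozygote cells, with the activator gene Plau at 25.003 and 39.4 and the plasminogen-binding annexin gene Anxa2 at 981 and 1532. Plasminogen itself (Plg) was listed at 0 in both. Under a pseudocount of 5 the median was -0.35 and 1 gene was lower.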
